A study of Homo sapiens with 4 samples.

Results

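The comparison described here is that of OVCA420 cells after 7 days of TGF-β1 with OVCA420 cells after 3 days of TGF-β1. Its members are the cells of those libraries in which over 200 genes were found and mitochondrial genes made up no more than 20% of UMIs, which left 705 cells at 3-day and 569 cells at 7-day, 1274 of the 3144 cells retained over all 4 libraries of the time course. OVCA420 is an established epithelial ovarian cancer line. The study treated it with TGF-β1 at 10 ng/mL to induce epithelial-mesenchymal transition (EMT), added fresh cytokine every 2 days, harvested all time points together (Ctrl, untreated, and 1, 3 and 7 days) and made 1 droplet-based 10x Genomics 3′ library from each. A unique molecular identifier (UMI) marks each captured transcript, so that the deposited numbers count molecules. The retained cells held 32139723 UMIs at 3-day and 25382817 at 7-day, with a median of 43553 and 43382 per cell. The barcode lists named 2253 and 2484 cells, of which the first 712 and 572 in barcode order were analysed here.

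With 1 library per time point there is no replicate and no test, and a difference between days cannot be told apart from any other difference between these libraries. Levels are the UMIs summed over a library and scaled to CPM, a common total per library, and each log2 ratio is that of the 7-day to the 3-day level with an exact 95% interval that covers counting error only. The cells carried the epithelial markers of the line's origin at both times. *KRT19*, a keratin of simple epithelia, was at 519 CPM at 3-day and 581 CPM at 7-day, and *EPCAM*, an epithelial adhesion molecule, was at 361 and 297 CPM. Of the study's other cancer cell markers, *ELF3* was at 28.7 and 52.8 CPM, while *AMHR2* had 2 UMIs at 3-day and 0 at 7-day. Among other ovarian markers *PAX8*, *MUC16* and *WT1* had at most 8 UMIs in either library. None of 20 markers of fibroblasts, endothelium, smooth muscle and immune cells reached 10 CPM. Their summed level was 10.5 CPM at 3-day and 15.5 CPM at 7-day, mostly from *CD68* and *CD79A*, and *PTPRC*, *THY1*, *CLDN5*, *DES*, *MS4A1* and *NKG7* had no UMI in either library. The libraries shared 6 listed barcodes, 3 of them among retained cells, and both 2-fold counts given next were the same without those cells.

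TGF-β1 binds a receptor kinase pair that activates SMAD transcription factors, and in epithelial cells it loosens junctions, builds stress fibres and turns on extracellular matrix genes. NF-κB and AP-1 are transcription factor families that respond to inflammatory cytokines and to stress, and many chemokine, cytokine and protease genes are among their known targets. Chemokines are small secreted proteins that attract leukocytes along a gradient, CXC chemokines with a glutamate-leucine-arginine motif mainly neutrophils and CC chemokines such as CCL2 and CCL5 mainly monocytes and T cells.

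Between day 3 and day 7 the cells gained transcripts of most chemokine genes measured, of *IL1A*, *IL1B* and *IL1RN*, and of several EGFR ligands and matrix proteases, while most of the genes that fell had been higher on the first day of TGF-β1. Of 8048 genes that reached 10 CPM in 1 or both libraries, 106 (1.32%) were at least 2-fold higher at 7-day and 50 (0.621%) were at least 2-fold lower. A gene that reached 10 CPM in only 1 library was counted through the library in which it was higher. The median log2 ratio over all 8048 genes was 0.05, and 7463 genes (92.7%) differed by less than 1.5-fold. The ratio was above 0 for 4747 genes and below 0 for 3301, the reference for the counts by sign given below. The counting interval lay wholly beyond 2-fold for 76 of the higher and 34 of the lower genes. With median-of-ratios size factors in place of total UMIs the counts were 87 higher and 68 lower, so that higher genes made up 56.1% rather than 67.9% of those past 2-fold. *PCOLCE2* (6.63 and 13.3 CPM) and *KDM6B* (39.5 and 19.7 CPM) were the genes just inside the 2-fold limits, and *RILP* (6.94 and 13.9 CPM) and the keratin gene *KRT17* (2503 and 1253 CPM) were just outside.

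**Figure D1:**
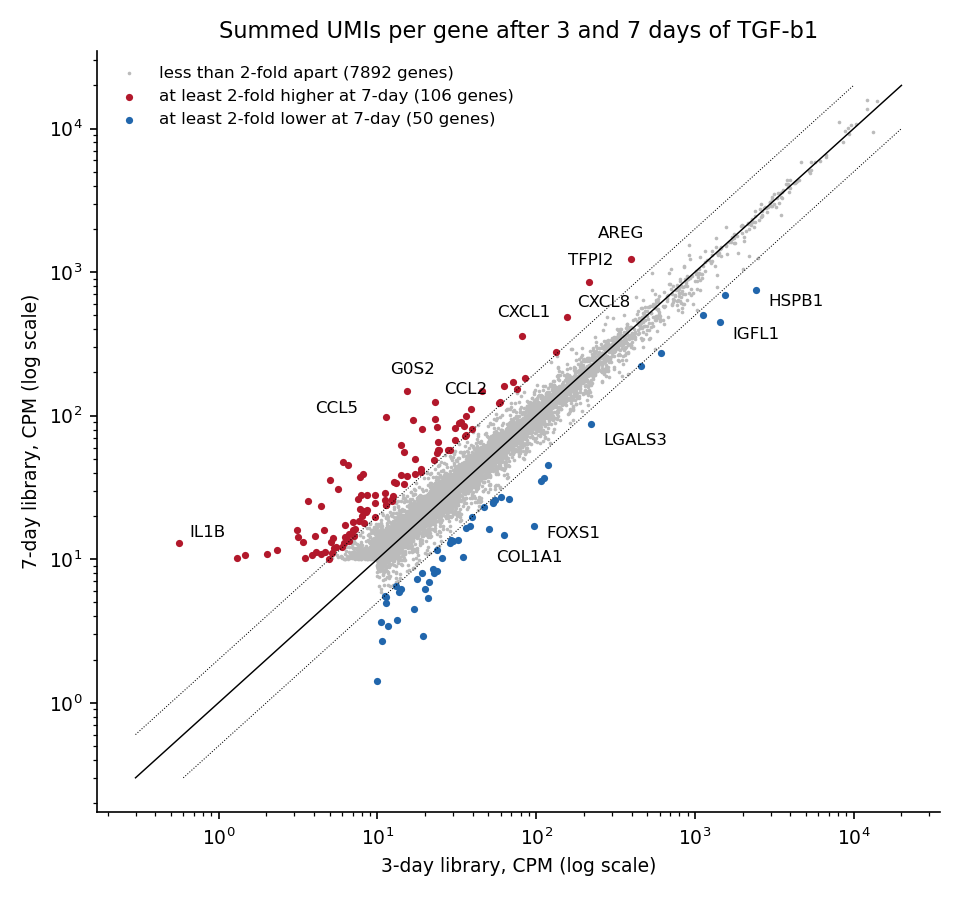
Level of each of 8048 genes in the 3-day library (x axis, CPM, log scale) and the 7-day library (y axis, CPM, log scale), each point a gene, with the line of equality and dotted lines at 2-fold. Most genes lie along the line, 106 red points lie above the upper dotted line and 50 blue points below the lower one, with IL1B, G0S2 and CCL5 far above and FOXS1 and COL1A1 far below.

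Chemokines formed the group with the highest median ratio. Of 17 chemokine genes listed, 10 reached 10 CPM in either library. Of these, 8 (80.0%, against 1.32% of all genes tested) were at least 2-fold higher at 7-day. None was 2-fold lower (0.621% of all genes tested), and the median log2 ratio was 2.04 against 0.05 over all genes. The summed level of the list was 382 CPM at 3-day and 1373 CPM at 7-day. *CCL5*, which attracts T cells and monocytes, had 11.4 CPM at 3-day (10.2 to 12.6) against 97.7 at 7-day (93.9 to 102), and its log2 ratio was 3.11 (2.95 to 3.27). *CCL2*, the main monocyte attractant, was at 23.2 and 125 CPM, with a log2 ratio of 2.42 (2.31 to 2.54). *CXCL1*, a neutrophil attractant, was at 81.2 and 361 CPM, with a log2 ratio of 2.15 (2.09 to 2.22). Its close paralogs *CXCL2* (16.7 and 93.5 CPM) and *CXCL3* (7.81 and 37.2 CPM) were higher by 2.49 and 2.25 on the log2 scale. Reads from these 3 near-identical genes can be split between them or lost, so their separate values are uncertain. *CXCL8*, the most abundant chemokine of the list by UMIs, was at 157 and 487 CPM, a log2 ratio of 1.63. *CCL20*, which binds CCR6 on lymphocytes and dendritic cells, was at 14.7 and 55.9 CPM, and *CXCL6* at 8.59 and 27.8 CPM. *CXCL3* and *CXCL6* were under 10 CPM at 3-day, so they entered the count of 8 only through their higher 7-day level. The other members with at least 10 CPM were *CXCL16*, at 45.1 and 66.2 CPM, and *CX3CL1*, at 12.7 and 11.2 CPM, and neither reached 2-fold. The list was written with earlier results of these data known, and a chemokine outside it moved the other way. The count of none 2-fold lower therefore holds for the listed genes only. *CCL15* had 34.7 CPM at 3-day against 10.3 at 7-day, and its log2 ratio was -1.76 (-1.96 to -1.56).

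Promoter sequences were looked up for the genes past 2-fold, because these chemokine genes moved together and because NF-κB sites are a known feature of the family. RefSeq (GRCh38.p14) gave a promoter for 6 of the 8 chemokine genes (all but *CCL2* and *CCL5*), and 5 of them held the NF-κB consensus in the 250 bases before the start, on either strand. The last 150 bases before each start are shown, with matches to the NF-κB consensus or to the AP-1 site TGANTCA in capitals. They include the promoter without a full match to the NF-κB consensus.
CXCL1, chr4:73869243-73869392, plus strand: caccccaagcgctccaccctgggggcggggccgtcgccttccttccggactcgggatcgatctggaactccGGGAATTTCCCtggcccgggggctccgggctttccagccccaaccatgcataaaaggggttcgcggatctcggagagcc
CXCL2, chr4:74099196-74099345, minus strand: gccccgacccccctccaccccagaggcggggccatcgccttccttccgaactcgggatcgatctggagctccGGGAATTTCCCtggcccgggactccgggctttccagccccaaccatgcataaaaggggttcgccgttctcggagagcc
CXCL3, chr4:74038690-74038839, minus strand: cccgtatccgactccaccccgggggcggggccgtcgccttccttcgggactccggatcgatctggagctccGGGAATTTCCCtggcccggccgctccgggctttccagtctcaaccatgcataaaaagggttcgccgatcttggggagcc
CXCL6, chr4:73836528-73836677, plus strand: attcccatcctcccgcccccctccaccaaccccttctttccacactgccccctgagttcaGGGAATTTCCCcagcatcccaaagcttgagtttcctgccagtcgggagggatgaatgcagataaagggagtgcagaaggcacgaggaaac
CCL20, chr2:227813692-227813841, plus strand: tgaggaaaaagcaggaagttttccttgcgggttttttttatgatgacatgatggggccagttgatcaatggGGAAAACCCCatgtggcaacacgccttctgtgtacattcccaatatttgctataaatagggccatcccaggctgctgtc
CXCL8, chr4:73740419-73740568, plus strand: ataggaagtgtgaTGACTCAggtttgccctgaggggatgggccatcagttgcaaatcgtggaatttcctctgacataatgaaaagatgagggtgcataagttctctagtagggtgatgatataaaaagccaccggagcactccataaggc

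In *CXCL1*, *CXCL2*, *CXCL3* and *CXCL6* the capitals are the same run of letters, in which 2 overlapping matches to the consensus lie 1 base apart. The run began 79, 78, 79 and 90 bases before the start, respectively. *CXCL1*, *CXCL2* and *CXCL3* are close paralogs, so their matches are not independent instances. *CCL20* held 1 match, 79 bases before the start. *CXCL8* held no full match to the consensus as searched and 1 AP-1 site, TGACTCA, 137 bases before the start. Its sequence does hold ggaatttcc, the inner part of the run in the other CXC genes, so a looser search could count it. Among 79 genes at least 2-fold higher at 7-day that had a promoter, 16 (20.3%, exact 95% interval 12 to 30.8) held the NF-κB consensus. The shares were 551 of 6596 genes tested (8.35%) and 6.28% of all 27305 genes with a promoter sequence. A gene with several promoters counted if any of them held the match. Outside the chemokine list the share was 11 of 73 (15.1%, 7.77 to 25.4). Of 35 genes 2-fold lower, 4 (11.4%) held it. The AP-1 site was found in 13.9% of the higher genes (7.16 to 23.5), 5.71% of the lower genes, 5.91% of genes tested and 8.06% of all genes with a promoter sequence. TATAAA was found in 20.3% (12 to 30.8), 8.57%, 7.58% and 13% of these sets. The SMAD element CAGACA was found in 17.7% (10.0 to 27.9), 22.9%, 13.2% and 16.3%. These shares describe letters in a window and say nothing of binding.

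The CXC chemokine genes past 2-fold and the EGFR ligand genes *EREG* and *AREG* lie near each other. In the 714.5 kb from *CXCL8* to *AREG* (chr4:73740519-74455005, GENCODE 44, GRCh38), 8 of 15 genes in the files reached 10 CPM and 7 of these were at least 2-fold higher at 7-day, namely *CXCL8*, *CXCL6*, *CXCL1*, *CXCL3*, *CXCL2*, *EREG* and *AREG*. The remaining gene, *MTHFD2L*, a mitochondrial folate enzyme that lies between *CXCL2* and *EREG*, was at 17.5 and 22.7 CPM. *CXCL5* in the same interval stayed under 10 CPM, with 34 UMIs at 3-day and 167 at 7-day. Likewise, in the 360.1 kb from *IL1A* to *IL1RN* (chr2:112773925-113134016) all 3 genes that reached 10 CPM were at least 2-fold higher. Elsewhere neighbours differed less alike. In the 463.1 kb from *BIRC3* to *MMP10* (chr11:102317484-102780628) these 2 of 4 genes with at least 10 CPM were higher, while *BIRC2* (50.1 and 61.7 CPM) and *TMEM123* (165 and 173 CPM) between them differed little. On chromosome 17 the picture was mixed, since *CCL5* and *CCL15*, the only genes with at least 10 CPM in the 130.1 kb that span them (chr17:35871491-36001553), differed in opposite directions. These intervals were drawn after the ratios had been seen and end at genes past 2-fold.

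The interleukin-1 genes *IL1A*, *IL1B* and *IL1RN* and several NF-κB feedback genes were also higher. Of 11 interleukin and colony-stimulating factor genes with at least 10 CPM, 5 (45.5%, against 1.32% of all genes tested) were at least 2-fold higher. None was 2-fold lower (median log2 ratio 0.98). *IL1B*, a secreted alarm cytokine, had the highest ratio, with 18 UMIs at 3-day and 327 at 7-day, or 0.560 and 12.9 CPM (log2 ratio 4.52, 3.84 to 5.30). *IL1A*, its relative that acts at the cell surface and in the nucleus, was at 35.1 and 84.5 CPM, and *IL1RN*, the antagonist of their shared receptor, was at 17.2 and 49.7 CPM, so that agonists and antagonist were higher together. *TNFSF15*, a TNF family cytokine, was at 1.46 and 10.6 CPM and *IL23A*, a subunit of interleukin 23, at 7.00 and 16.1 CPM. *IL1B*, *TNFSF15* and *IL23A* were under 10 CPM at 3-day, so they entered the count of 5 only through their higher 7-day level. In contrast, *IL18* (171 and 116 CPM), another member of the interleukin-1 family, and *IL11* (135 and 103 CPM) were lower at 7-day by less than 2-fold. *IL6* stayed under 10 CPM, at 1.12 and 8.0 CPM.

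Of 21 NF-κB subunit and feedback genes, 7 (33.3%, against 1.32% of all genes tested) were at least 2-fold higher. A ratio above 0 was found for 20, with a median log2 ratio of 0.59. The members past 2-fold were targets rather than subunits. *BIRC3*, a ubiquitin ligase that blocks cell death, was at 8.18 and 39.3 CPM, and *TNFAIP3*, which shuts off NF-κB signalling, was at 14 and 38.7 CPM. *ICAM1*, the adhesion molecule that leukocytes bind, was at 9.71 and 27.9 CPM, and *SOD2*, the mitochondrial superoxide dismutase, at 32.8 and 89.6 CPM. *TRAF1* (31.0 and 81.5 CPM) and *NFKBIZ* (8.65 and 21.9 CPM), a signalling adaptor and a nuclear co-regulator, completed the group together with *SAA1*, an acute phase protein at 3.17 and 14.2 CPM. *BIRC3*, *ICAM1*, *NFKBIZ* and *SAA1* were under 10 CPM at 3-day, so they entered the count of 7 only through their higher 7-day level. The log2 ratio of *SAA1* was 2.16 and ranged from 1.64, as a mean over cells of each cell's CPM, to 2.79, with each cell thinned to 18000 UMIs, and its reads can be shared with *SAA2*. The genes for the subunits differed little. *NFKB1* was at 63.0 and 76.6 CPM, *RELB* at 51.2 and 64.7 CPM, *REL* at 43.3 and 51.9 CPM and *RELA* at 52.8 and 59.2 CPM. The inhibitor *NFKBIA* was at 70.8 and 85.8 CPM.

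**Figure D2:**
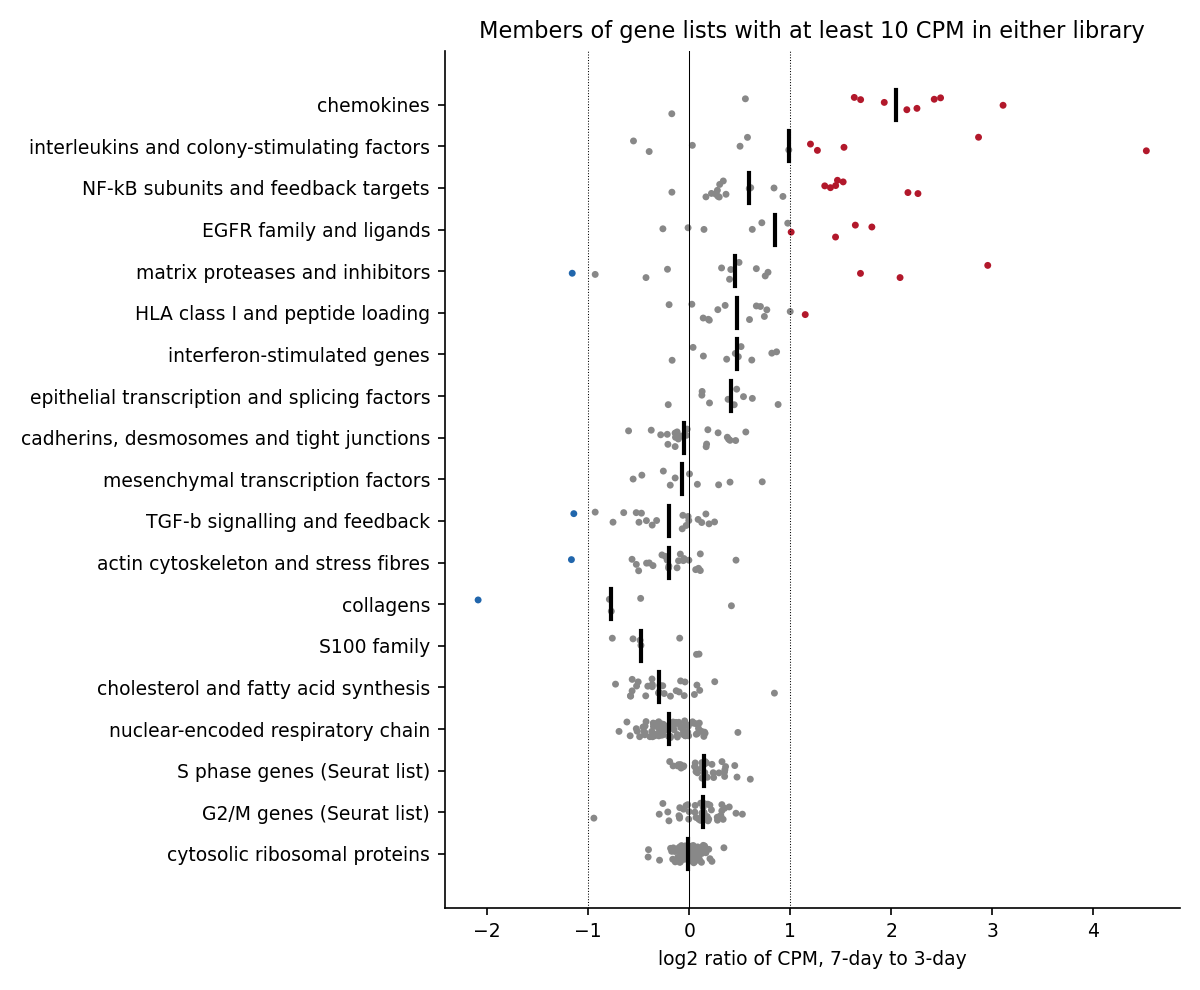
Log2 ratio of the 7-day to the 3-day level (x axis) of each member with at least 10 CPM in 19 gene lists, 1 point per gene, red or blue where past 2-fold, with a black bar at the list's median and dotted lines at 2-fold. The chemokine median lies furthest to the right, at 2.04, and the collagen median furthest to the left, at -0.77. The ribosomal protein points lie close to 0.

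Of 10 genes with at least 10 CPM on the list of EGFR family genes and ligands, 4 were at least 2-fold higher. The share over all genes tested was 1.32%. None was 2-fold lower (0.621% of all genes tested), and the median log2 ratio was 0.85. *AREG*, the ligand amphiregulin, had 394 CPM at 3-day (388 to 401) against 1232 at 7-day (1218 to 1246), and its log2 ratio was 1.64. *EREG*, epiregulin, was at 23.8 and 83.2 CPM, and *HBEGF*, which is shed from the cell surface, was at 36.4 and 99.4 CPM. *TGFA* was at 77.3 and 152 CPM, just under 2-fold. The count of 4 includes *DUSP6*, which is a phosphatase induced by and acting on ERK and not a receptor or ligand. *DUSP6* was at 28.7 and 57.8 CPM. Its log2 ratio of 1.01 fell under the 2-fold limit in 3 alternatives, at 0.99 with a 10% mitochondrial limit, 0.93 with median-of-ratios size factors and 0.87 in G1 cells.

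Several matrix proteases were higher at 7-day. Of 14 genes on the list of proteases and inhibitors, 3 (21.4%, against 1.32% of all genes tested) were at least 2-fold higher, all proteases. One inhibitor (7.14%, against 0.621%) was 2-fold lower. *MMP9*, a gelatinase, was at 19.1 and 81.2 CPM (log2 ratio 2.09, 1.96 to 2.22). *PLAU*, the urokinase that activates plasminogen, was at 45.9 and 149 CPM. *MMP10*, stromelysin-2, was at 1.31 and 10.1 CPM, and so entered the count of 3 only through its higher 7-day level. *PLAU* held neither the NF-κB consensus nor the AP-1 site in its 2 promoters, and *MMP9* had no promoter to search. The *MMP10* promoter held an AP-1 site 67 bases before the start and no NF-κB consensus, shown in the same way as the chemokine promoters.
MMP10, chr11:102780629-102780778, minus strand: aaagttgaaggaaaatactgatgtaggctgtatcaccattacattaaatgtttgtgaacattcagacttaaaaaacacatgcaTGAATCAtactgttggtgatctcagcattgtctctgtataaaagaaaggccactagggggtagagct
*MMP2* (72.1 and 95.9 CPM) and *MMP14* (79.5 and 112 CPM), a gelatinase and its membrane-bound activator, were higher by less than 2-fold. *SERPINE2*, an inhibitor of urokinase and thrombin, had 1117 CPM at 3-day against 500.3 at 7-day, and its log2 ratio was -1.16, or -0.92 among G1 cells. *TFPI2*, an inhibitor of plasmin and coagulation proteases that was not on the list, moved the other way, from 214 to 857 CPM.

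Other genes at least 2-fold higher at 7-day lay outside the groups above. Only 38 of all 106 higher genes were on any gene list. *G0S2*, an inhibitor of the triglyceride lipase ATGL, had 15.4 CPM at 3-day (14.1 to 16.9) against 149 at 7-day (144 to 153), and its log2 ratio was 3.27. It alone of 12 lipid droplet and fatty acid handling genes was past 2-fold (8.33%, against 1.32% of all genes tested), and the list's median was -0.01. *LCP1*, an actin bundling protein typical of leukocytes, was at 23.0 and 95.3 CPM although *PTPRC*, the pan-leukocyte marker, had no UMI. *PTGS2*, the inducible cyclooxygenase, was at 14.2 and 62.8 CPM, and *BCL2A1*, an anti-apoptotic BCL2 relative, at 6.57 and 45.2 CPM. *AXL*, a receptor tyrosine kinase often counted among YAP targets, was at 5.63 and 30.8 CPM. Its log2 ratio was 2.45, but 1.5 among G1 cells. *ITGA5*, the fibronectin receptor subunit, was at 12.8 and 34.7 CPM and was 1 of 2 higher among 10 integrin genes. *MFAP5*, a microfibril protein, was at 3.64 and 25.5 CPM. Of the checkpoint ligands and galectins, *CD274*, which encodes PD-L1, was at 2.33 and 11.5 CPM and *LGALS1* at 62.6 and 161 CPM, while *LGALS3* went from 221 to 87.0 CPM. Antigen presentation genes were higher by smaller amounts. Of 14 class I and peptide loading genes, 13 had a ratio above 0 (median log2 ratio 0.48). Only 1 (7.14%, against 1.32% of all genes tested) was 2-fold higher, namely *ERAP2*, a peptide-trimming enzyme, at 12.5 and 27.8 CPM. *HLA-B* was at 55.9 and 93.6 CPM. Interferon-stimulated genes had a median log2 ratio of 0.47, with none of 10 past 2-fold.

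Listed genes of TGF-β signalling and feedback were lower on balance at 7-day, although treatment was continued. Genes higher on the first day of TGF-β1, described further below, differed in both directions. Of 20 TGF-β signalling and feedback genes, 15 had a ratio below 0 and the median log2 ratio was -0.20. Only 1 (5.0%, against 0.621% of all genes tested) was 2-fold lower. *TGFBI*, a matrix protein named for its induction by TGF-β, was at 471 and 301 CPM, and *PMEPA1*, a feedback inhibitor of SMAD signalling, at 1385 and 962 CPM. *SMAD7*, the inhibitory SMAD, was at 28.5 and 16.9 CPM. The member past 2-fold was *BAMBI*, a decoy receptor, at 28.7 and 13 CPM. *CTGF*, a matricellular target of SMAD and YAP, was at 557 and 293 CPM. The activin antagonists diverged, with *FST* at 536 and 981 CPM and *FSTL3* at 163 and 88.4 CPM.

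Most of the collagen and actin cytoskeleton genes measured were lower at 7-day, with 1 of each list past 2-fold. Only 5 of 19 listed collagens reached 10 CPM, with a median log2 ratio of -0.77. *COL1A1*, a chain of fibrillar collagen I, had 63.1 CPM at 3-day against 14.8 at 7-day (log2 ratio -2.09, -2.25 to -1.93). The basement membrane genes *COL4A1* (118 and 68.4 CPM), *COL4A2* (186 and 133 CPM) and *COL18A1* (55.4 and 32.4 CPM) were lower by less than 2-fold, and the hemidesmosome collagen *COL17A1* was higher, at 56.9 and 76.0 CPM. *LAMB3*, a laminin chain of the basement membrane, was higher too, at 279 and 489.6 CPM. Of 23 actin cytoskeleton genes, 18 had a ratio below 0 and 1 (4.35%, against 0.621% of all genes tested) was 2-fold lower. *TPM1*, a tropomyosin of stress fibres, was at 1546 and 688 CPM, while *CNN3* (643 and 434 CPM) and *CALD1* (416 and 294 CPM) differed less. *TMSB10*, which binds actin monomers, had the largest gain in CPM of any gene after the metallothionein gene *MT2A*, with 8124 and 11190.3 CPM.

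The lowest ratio among genes with at least 50 CPM was that of *FOXS1*, a forkhead transcription factor, with 97.4 CPM at 3-day against 17.1 at 7-day (log2 ratio -2.51, -2.66 to -2.37). *IGFL1*, an insulin growth factor-like secreted protein, was at 1434 and 446 CPM, and *HSPB1*, the small heat shock protein HSP27, at 2421 and 756 CPM. *HSPB1* alone of 14 heat shock chaperone genes was past 2-fold (7.14%, against 0.621% of all genes tested), and the list's median was 0.01. *LMCD1*, a LIM domain regulator, was at 108 and 35.2 CPM, *NPPB*, the natriuretic peptide B precursor, at 112 and 36.8 CPM, and *CES1*, a carboxylesterase, at 68.0 and 26.4 CPM. *CXXC5*, a zinc finger protein, was at 119 and 45.0 CPM, and *TCEAL1* at 50.7 and 16.3 CPM. The S100 calcium-binding genes had a median log2 ratio of -0.48, with none of 7 past 2-fold, and *S100A2* had the largest loss of any gene in CPM, from 13265 to 9517 CPM.

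Genes linked to the epithelial and mesenchymal states differed unevenly. *COL1A1*, which the study names for EMT, was past 2-fold lower, as was the basal keratin gene *KRT14* (22.5 and 8.55 CPM, with reads that can be shared with *KRT17*). None of 10 mesenchymal transcription factor genes, 10 epithelial regulators or 22 junction genes was past 2-fold, with median log2 ratios of -0.07, 0.41 and -0.05. Of all genes tested, only 1.32% were 2-fold higher and 0.621% 2-fold lower. A count of none in a small list is therefore near the share over all genes, here and for the other lists with none past 2-fold. Of the epithelial regulators, 9 of 10 had a ratio above 0, as did 4747 of all 8048 genes. *SOX4*, a transcription factor the study names for EMT, was at 565 and 566 CPM (log2 ratio 0.00, -0.03 to 0.03), and *FN1*, fibronectin, at 256 and 232 CPM. *SNAI2*, an EMT transcription factor, was lower at 7-day, at 57.5 and 39.1 CPM, and *HMGA2*, a chromatin protein, was higher, at 69.1 and 114 CPM. The classical mesenchymal genes *VIM* (5 and 6 UMIs) and *ZEB1* (14 and 14 UMIs) were near 0 at both times. Among epithelial regulators, *ELF3* (28.7 and 52.8 CPM) and *KLF5* (39.9 and 61.5 CPM) were higher at 7-day by less than 2-fold. No gene of the S phase list (median log2 ratio 0.14, 35 genes) or the G2/M list (0.13, 48 genes) was past 2-fold, nor was any of 82 ribosomal protein genes (-0.02), 13 mitochondrially encoded genes (-0.04) or 21 glycolysis and hypoxia genes (0.02). The libraries did differ in cells scored as G1 from their cell cycle genes, with 347 of 705 at 3-day and 223 of 569 at 7-day. Nuclear-encoded respiratory chain genes (-0.20) and genes of cholesterol and fatty acid synthesis (-0.30) had medians below 0 with none past 2-fold.

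The Ctrl and 1-day libraries, which enter neither level of this comparison, were used to ask how genes that responded on the first day behaved later. Of the 8048 genes, 793 (9.85%) were at least 2-fold higher at 1-day than in Ctrl and 594 (7.38%) were at least 2-fold lower. Cells scored as G1 were 254 of 933 in Ctrl and 701 of 937 at 1-day, and how far this enters these sets was not tested. Of the 50 genes lower at 7-day than at 3-day, 38 (76.0%) belonged to the genes higher on the first day and 0 to the genes lower on the first day. *FOXS1* had 3.50, 161, 97.4 and 17.1 CPM over the Ctrl, 1-day, 3-day and 7-day cells, a peak at 1-day followed by lower levels. *COL1A1* had the same order of levels, at 4.10, 141, 63.1 and 14.8 CPM. *HSPB1* was at 834, 7132, 2421 and 756 CPM, and thus below its Ctrl level at 7-day. *IGFL1* peaked at 3-day, with 22.2, 1239.8, 1434 and 446 CPM. *TGFBI*, at 14.5, 476, 471 and 301 CPM, and *PMEPA1*, at 66.8, 1501, 1385 and 962 CPM, were still far above Ctrl at 7-day. Over all 793 genes higher on the first day, 38 (4.79%, against 0.621% of all genes) were 2-fold lower at 7-day than at 3-day. Another 25 (3.15%, against 1.32%) were 2-fold higher. The median log2 ratio of the 793 genes was -0.17, with 512 below 0 and 281 above. Over the 594 genes lower on the first day the median was 0.27, with 522 above 0. Of all 8048 genes, 4747 were above 0 and 3301 below.

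The 106 genes higher at 7-day had moved in either direction on the first day. Among them, 25 (23.6%, against 9.85% of all genes) were higher on the first day, 23 (21.7%, against 7.38%) were lower and 58 (54.7%) were within 2-fold. Several chemokine and EGFR ligand genes were lower at 1-day than in Ctrl and passed the Ctrl level only at 7-day. *CXCL1* was at 114, 43.4, 81.2 and 361 CPM and *EREG* at 65.1, 22.7, 23.8 and 83.2 CPM over the 4 libraries in order of time. *BIRC3* was at 12.4, 2.15, 8.18 and 39.3 CPM. Others rose at each step after day 1 from near 0, such as *MMP9*, at 2.10, 4.19, 19.1 and 81.2 CPM, and *LCP1*, at 1.90, 1.37, 23.0 and 95.3 CPM. *TFPI2* was higher at each later time, at 34.5, 59.4, 214 and 857 CPM. The summed level of the chemokine list was 326, 200.1, 382 and 1373 CPM, and that of the TGF-β signalling list 646, 4382, 4024 and 2854 CPM.

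**Figure D3:**
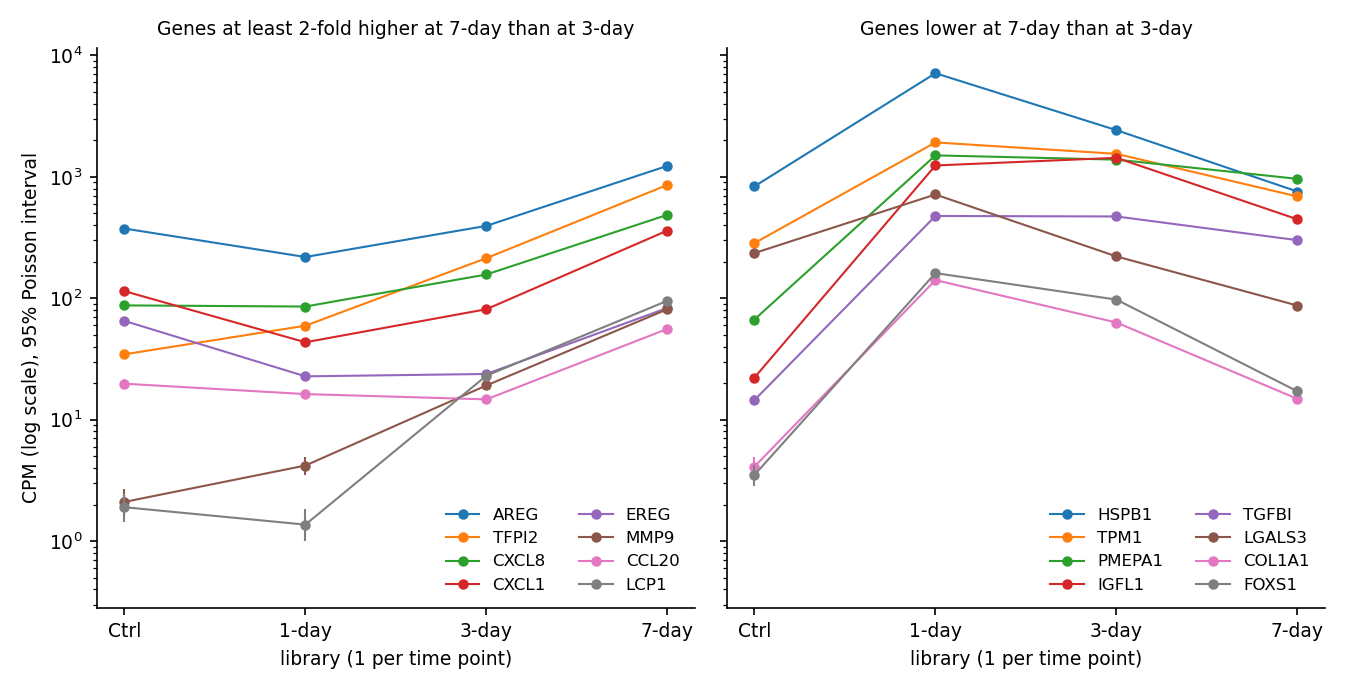
Level (y axis, CPM, log scale) of 8 genes at least 2-fold higher (left) and 8 genes lower (right) at 7-day than at 3-day in each of the 4 libraries in order of time, with 95% Poisson intervals, and lines that join single libraries. The genes on the left are highest at 7-day, whereas those on the right are highest at 1-day or 3-day and lower at 7-day, with HSPB1 and LGALS3 ending below their Ctrl level.

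To see whether the differences were carried by many cells or few, the UMIs of each cell were thinned to 18000, leaving 677 cells at 3-day and 549 at 7-day and dropping 28 and 20 shallower ones. All 106 genes higher at 7-day were detected in a larger share of cells there, and 49 of the 50 lower genes in a smaller share. These genes were picked by their levels in the same libraries, so the direction of the share was largely set by that choice. At least 1 *CXCL1* UMI was found in 48.0% of 3-day cells and 88.5% of 7-day cells (64.5% and 96.0% unthinned), and *CXCL8* in 63.5% and 92.9% (77.2% and 98.8% unthinned). *LCP1* was found in 21.0% and 64.5%, *CXCL2* in 19.8% and 60.8%, *BCL2A1* in 7.09% and 45.2% and *EREG* in 27.0% and 61.9%. Together with *CXCL1* these had the 5 largest gains in share. The largest losses were those of *FOXS1*, from 71.6% to 23.5%, *LMCD1*, from 76.7% to 40.8%, *COL1A1*, from 53% to 20.8%, *CXXC5*, from 83.8% to 52.3%, and *CCL15*, from 45.8% to 16.6%. Of the 8 chemokine genes past 2-fold, the median cell held 2 at 3-day and 4 at 7-day. Because these 8 were picked by their ratio in the same libraries, more of them per cell at 7-day follows from that choice. No UMI of any of them was found in 118 of 677 cells at 3-day (17.4%, exact 95% interval 14.6 to 20.5) and in 5 of 549 at 7-day (0.911%, 0.296 to 2.11), and 5 or more were found in 4.28% and 37.3% of cells. Free RNA in the droplets also yields UMIs, and no cell type that lacks these genes was present to measure it.

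**Figure D4:**
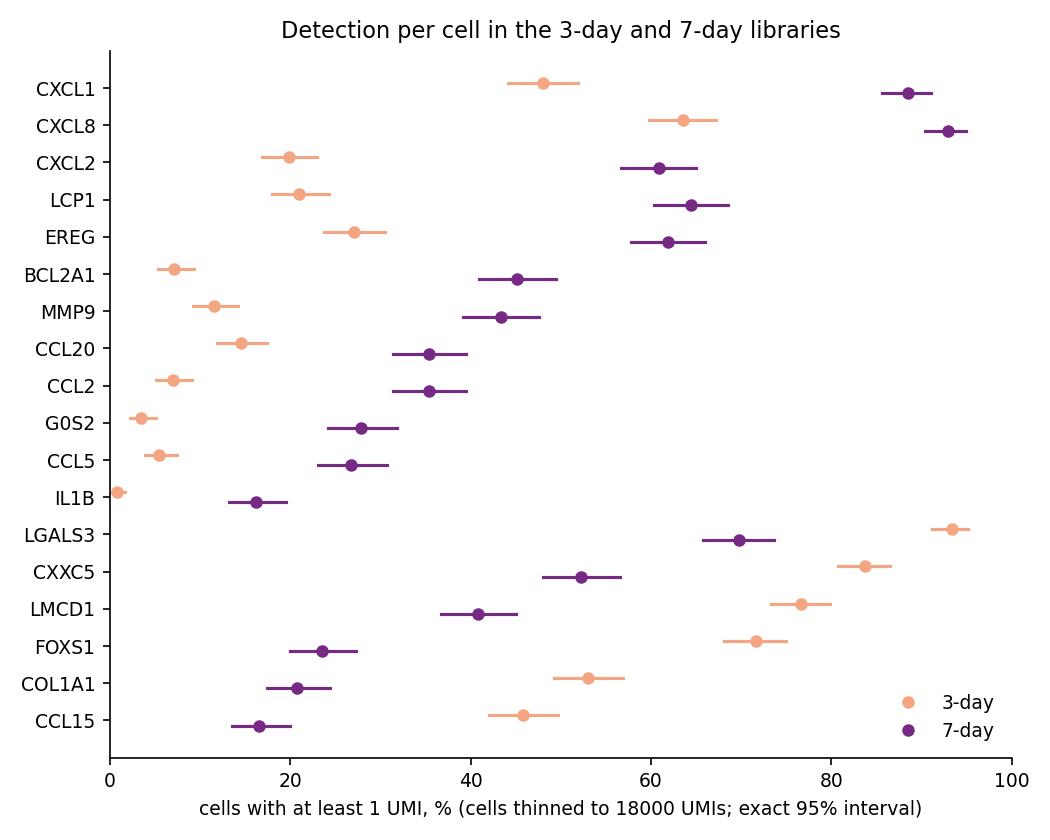
Share of cells with at least 1 UMI (x axis, %) of 12 genes higher and 6 genes lower at 7-day, in 677 3-day cells (orange) and 549 7-day cells (purple) thinned to 18000 UMIs, with exact 95% binomial intervals. The purple point lies to the right of the orange one for the upper 12 genes, for example 88.5% against 48.0% for CXCL1, and to its left for the lower 6, and no pair of intervals overlaps. The genes shown were picked with their differences known, and the intervals cover counting error only.

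Genes with about the same number of UMIs at 7-day differed widely in how these were spread over the cells. *CCL5* (97.7 CPM), *LCP1* (95.3 CPM) and *CXCL2* (93.5 CPM) had similar sums, yet *CCL5* was detected in 26.8% of thinned 7-day cells, *LCP1* in 64.5% and *CXCL2* in 60.8%. The 10% of cells with most UMIs of the gene held 87.5% of the *CCL5* UMIs, 37.3% of the *LCP1* UMIs and 41.3% of the *CXCL2* UMIs. A single cell held up to 152 *CCL5* UMIs, against at most 14 for *LCP1* and 26 for *CXCL2*. The same held for *G0S2* and *PLAU*, both at 149 CPM, with 89.6% and 51.1% of UMIs in the top 10% of cells. *CCL2* (80.2%), *MMP9* (65.6%) and *CCL20* (61.7%) were also concentrated. At 3-day, *G0S2*, *CCL5* and *CCL2* were detected in 3.40%, 5.47% and 6.94% of thinned cells, so that all of their UMIs left after thinning lay in fewer than 10% of cells.

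**Figure D5:**
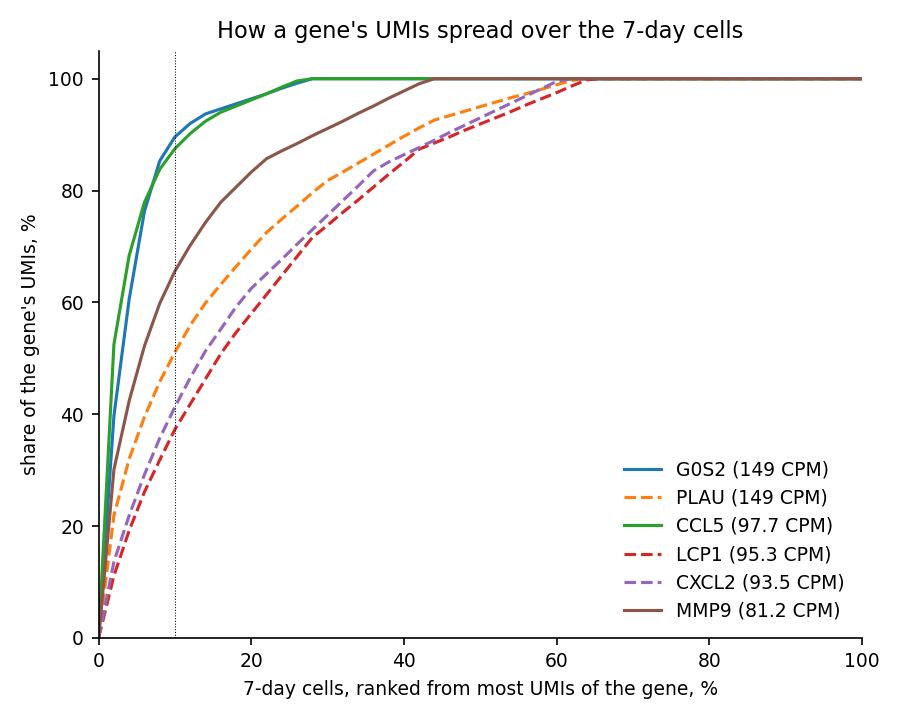
Share of a gene's UMIs (y axis, %) held by the 7-day cells with most of them (x axis, % of 549 cells thinned to 18000 UMIs), for 6 genes with 81.2 to 149 CPM. The solid curves of G0S2, CCL5 and MMP9 rise steeply, to 89.6%, 87.5% and 65.6% at 10% of cells, above the dashed curves of PLAU, CXCL2 and LCP1.

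The concentrated genes overlapped in part. At 3-day, *MMP9* was detected in 19 of 37 cells with a *CCL5* UMI (51.4%, 34.4 to 68.1) and in 59 of 640 cells without one (9.22%, 7.09 to 11.7). At 7-day these shares were 67.3% of 147 cells and 34.6% of 402 cells. *CCL2* was detected in 50.3% of 7-day cells with a *CCL5* UMI (42.0 to 58.7) and in 29.9% of those without (25.4 to 34.6). *G0S2* was detected in 40.1% and 23.4% of the same cells. Other *G0S2* pairs differed less at 7-day. *CCL2* was found in 39.2% (31.4 to 47.4) of cells with a *G0S2* UMI and 33.8% (29.2 to 38.7) of those without. *MMP9* was found in 51.0% (42.8 to 59.1) and 40.4% (35.5 to 45.4) of these cells. At 3-day the *CCL2* shares were 30.4% of 23 cells and 6.12% of 654 cells. *CCL20* was detected in 34.7% (27.0 to 43.0) of the 7-day cells with a *CCL5* UMI and 35.6% (30.9 to 40.5) of the others. At 3-day it was detected in 25.5% (13.9 to 40.3) of cells with a *CCL2* UMI and 13.7% (11.1 to 16.6) of those without, and in 20.5% (12.2 to 31.2) of cells with an *MMP9* UMI and 13.7% (11 to 16.7) of those without. The corresponding 7-day shares were 37.6% and 34.1% for *CCL2* and 37.0% and 34.1% for *MMP9*. Of the 5 genes *G0S2*, *CCL5*, *CCL2*, *MMP9* and *CCL20*, 2 or more were detected in 7.83% of 3-day cells and 52.8% of 7-day cells, and all 5 in 0 and 10 cells, respectively. These 5 were taken from the 12 highest ratios for their concentration at 7-day, so more joint detection at 7-day follows in part from that choice. It also follows from the larger share of 7-day cells with each gene. The counts of cells with 2 or more were not set against those that the single shares alone would give. They therefore do not show overlap at 7-day.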

How the data were processed

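Droplet-based 10x Genomics 3′ scRNA-seq was performed on OVCA420 cells, 1 library for each time. Alignment to GRCh38 by the authors used Cell Ranger 2.0.1, and they deposited UMI counts per gene and cell, neither normalized nor, as far as the files show, filtered beyond the cell lists. The annotation release was not given in the sources used here. Cells were read up to the last complete one in the matrix text (712 of 2253 listed at 3-day and 572 of 2484 at 7-day). The 20% mitochondrial limit removed 7 and 3 cells, and the 200-gene limit removed 0.

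UMIs were summed per library and scaled to CPM without division by gene length, as 3′ counts take about a tag per transcript. Poisson, conditional and Clopper-Pearson 95% intervals cover counting error only. A gene counted as higher or lower at a log2 ratio of at least 1 in size, with at least 10 CPM in either library. Cells were thinned to 18000 UMIs by seeded draws without replacement. Doublets were marked by Scrublet in scanpy 1.11.5 (10 and 11 cells) and retained. The 12 highest and 12 lowest ratios with at least 50 CPM, up to 4 members per list, 9 EMT or TGF-β1 genes, and the 5 largest gains and losses in share or in CPM were named by rule, and the other genes named were chosen after their values were seen. The comparison, the 45 gene lists and the settings were chosen with earlier results of these data known. The ratio and thinning steps were tested on simulated data. Promoters were matched by symbol for 6596 of 8048 genes. Some genes are not reported here.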

Additional observations from a re-analysis of the deposited data

How the results depend on the processing

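No paired analysis was possible because each time point has 1 library. The numbers of genes past 2-fold depended most on the minimum level, since fewer or more genes were then counted. With at least 50 CPM in either library there were 37 higher and 18 lower genes among 3011, and with no minimum beyond more than 3 UMIs in each library 776 higher and 322 lower among 15417. Under 8 other settings the counts ranged from 87 to 139 higher and from 50 to 73 lower, and held at least 87 of the 106 higher and 41 of the 50 lower genes. One of these settings, without barcodes in both libraries, was chosen after seeing the data. The 54 named genes past 2-fold kept their direction in all 432 values under these 8 settings, and 8 values of 4 genes (*SERPINE2*, *IGFBP6*, *DUSP6* and *GDF15*) were under 2-fold. As these genes were taken past 2-fold and the settings reuse the same cells, a change of direction was unlikely from the outset. Among G1 cells only, 117 of 186 named ratios left their counting interval. Of 43 list medians, 17 then moved by more than the typical counting error of a member, and 4 changed sign. Median-of-ratios size factors moved the median log2 ratio of all genes by -0.07. Low counts limit single ratios, the smallest count behind a gene past 2-fold being 18 UMIs, and the spread between cultures was not measured.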
